A study of Mus musculus with 4 samples.

Results

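The kinesin genes examined here are those whose symbol is Kif, a number and at most 1 further letter. They were found through the platform annotation of an Affymetrix mouse expression array, on which a probe set is a group of short probes that reads 1 transcript. Probe sets annotated to exactly 1 such symbol were kept, and each gene was represented by the probe set with the highest mean signal over the 4 arrays. This gave 37 kinesin genes, read by 99 probe sets, among 18193 named genes. A further probe set that lists Kif27 together with another symbol was left out. All 37 gene IDs were found in a RefSeq gene table of the mouse, with 0 changed symbols.

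The series measured RNA from primary keratinocytes, the main cell type of the epidermis, grown from newborn C57BL/6 animals. There were 4 groups with 1 array each: WT cells without irradiation, WT cells 4 h after UVB (ultraviolet B light, 75 mJ/cm2), p38a-KO cells without irradiation, and p38a-KO cells 4 h after the same dose. The gene named by the KO label is Mapk14, which encodes the stress-activated kinase p38alpha, and the design compares the UVB response and the genotypes. The deleted stretch, the cells in which it was deleted, and whether a culture pooled several animals could not be taken from the labels. The sample titles do not say whether the unirradiated cultures were collected together with those at 4 h. The effect of UVB and that of 4 h of further culture thus cannot be told apart from the titles.

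Values are MAS5 signal units, a linear measure of probe set brightness. With 1 array a group the ratio of any 2 arrays lacks a replicate check, and precision is limited by the array number. A floor of 24.9 units, the median over all probe sets of their mean signal, was used, and lower values were raised to it before taking log2. The mean signal reached the floor in 27 of the 37 kinesin genes, and in 11377 of the 18193 named genes. Mapk14 read 985.4 units in WT cells without UVB and 292.5 units with it, and 1449 and 646.8 units in p38a-KO cells. It was thus not lower under the KO label in either condition, and a probe set outside the deleted stretch checks nothing, so these samples are called KO-labelled and every genotype direction rests on the labels. Median signal was 30.3 and 34.5 units on the unirradiated arrays and 18.7 on both irradiated ones. Of the keratinocyte markers on the array 11 of 11 were at or above the floor, with a summed signal between 44191 and 52953 units in the 4 groups. The sum hides changes of single genes. Trp63, the marker that changed most with UVB, read 1676 and 150.5 units in WT cells without and with UVB, and 1931 and 235.5 units in KO-labelled cells. Of 6 endothelial markers 0 had a mean at or above the floor, and of 8 leukocyte markers 3 did.

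Kinesins are motor proteins that use ATP to move along microtubules or to take their ends apart. Mitotic kinesins build the spindle, move chromosomes and complete cytokinesis, and their genes are mostly transcribed late in the cell cycle, in dividing basal keratinocytes. Transport kinesins carry vesicles, endosomes, mitochondria and intraflagellar cargo in dividing and resting cells alike. Smaller groups act in the cilium and centriole or limit the growth of microtubules.

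The 37 genes were split by known role into 12 mitotic kinesins, 13 transport kinesins, 5 of the cilium and centriole and 7 others. At or above the floor were 9 of the mitotic, 10 of the transport, 2 of the cilium and centriole and 6 of the other kinesins. The 10 genes below it were Kif14, Kif15 and Kif2b of the mitotic class, Kif1a, Kif5a and Kif5c of the transport class, Kif6, Kif9 and Kif27 of the cilium class, and Kif28. Their values lay between 0.924 and 32.4 units, and 4 of the 10 reached the floor on an array. Kif1a, Kif5a and Kif5c are best known from neurons, and the neuronal markers Rbfox3, Snap25, Syt1, Map2 and Stmn2 likewise had mean signals below the floor.

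Promoter sequence, which the naming rule did not use, differed between the mitotic and the transport genes. Promoters of late cell cycle genes often hold a CCAAT box, bound by the factor NF-Y, and a CHR, a short element with the letters TTTGAA or TTTAAA that is bound by the MuvB complex. In RefSeq's promoter table of build GRCm38.p6, covering 250 bases before to 50 after each start, 31 of the kinesin genes matched with 35 promoters. TTTGAA, searched on both strands, stood in the promoters of 9 of 11 mitotic genes, in 1 of 10 transport genes, and in 17.9% of all 32851 promoters. The transport gene with a match was Kif1a, at its second listed start, and the mitotic genes without a match were Kif18a and Kif2b. CCAAT was found in 7 of 11 mitotic and 3 of 10 transport genes, against 37.4% of all promoters. Both a CCAAT and either CHR sequence were held by 6 mitotic and 0 transport genes, against 10.7% of all promoters. A match to these letters is a description, not a binding site.

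The following 130-base windows, from 100 bases before to 30 after the start, 5′ to 3′ on the gene's own strand, show both kinds of promoter. They are from RefSeq (GRCm38.p6) and were chosen after the expression values were seen: a mitotic kinesin with a large fall, a mitotic kinesin with both elements and a high signal, the mitotic kinesin with the smallest response in WT cells, and the transport kinesins with the largest and smallest fall among those that fell. Capitals mark CCAAT or TTTGAA on either strand, so that ATTGG and TTCAAA are the same elements read from the other strand.
Kif20b, chr19:34922258-34922387, plus strand: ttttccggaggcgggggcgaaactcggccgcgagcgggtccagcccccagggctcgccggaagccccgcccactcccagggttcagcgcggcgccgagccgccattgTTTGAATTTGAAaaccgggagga
Kif22, chr7:127042391-127042520, minus strand: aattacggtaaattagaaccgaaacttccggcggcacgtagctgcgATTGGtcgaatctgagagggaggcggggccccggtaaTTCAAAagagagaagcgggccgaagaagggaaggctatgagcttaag
Kif23, chr9:61946770-61946899, minus strand: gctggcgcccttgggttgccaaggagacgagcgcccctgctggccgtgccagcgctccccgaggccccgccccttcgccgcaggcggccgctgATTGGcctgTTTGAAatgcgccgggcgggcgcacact
Kif3b, chr2:153291316-153291445, plus strand: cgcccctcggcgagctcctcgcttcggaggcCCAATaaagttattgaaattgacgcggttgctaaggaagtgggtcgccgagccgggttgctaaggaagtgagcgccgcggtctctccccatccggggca
Kif1c, chr11:70700448-70700577, plus strand: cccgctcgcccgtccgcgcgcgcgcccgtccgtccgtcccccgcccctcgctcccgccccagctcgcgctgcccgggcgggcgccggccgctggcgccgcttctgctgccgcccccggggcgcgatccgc
Kif20b holds a tandem pair of TTTGAA, whose first bases lie at positions 8 and 14 after the start. In Kif22 the shown CCAAT lies 54 bases and the shown TTTGAA 17 bases before the start. Kif23 has CCAAT 7 bases before and TTTGAA 3 bases after it. Kif3b has 1 CCAAT, 69 bases before its start, and no TTTGAA, and Kif1c has neither in this window.

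Signal after UVB was lower for most genes on these arrays, and the kinesins are read against that shift. The UVB response is the log2 ratio of irradiated over unirradiated signal in 1 genotype. For WT its median over the 11377 genes was -0.70, for KO-labelled cells -0.82, and the sizes depend on the scaling: after quantile normalization the medians were 0.05 and 0.06, and after centring each array on its median 0.32 and 0.28. An additive model of irradiation and genotype, fitted with limma to all 11377 genes, gave the UVB effect over both genotypes, with Benjamini-Hochberg adjusted p-values and a threshold of 0.05. It has 1 residual degree of freedom, which is how far the genotypes' responses differ from each other. limma pools this with the spread of other genes of like signal, weighted as 8.26 degrees of freedom. The SEs and p-values thus rest mostly on that borrowed spread, and do not measure the spread between cultures. Some responses are also given relative to like signal, which is the response minus the median of genes in the same of 20 bins of mean signal. RNA came from whole cultures, so fewer cells of a type and less RNA per cell cannot be told apart.

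In WT cells 15 of the 27 kinesins were at least 2-fold lower after UVB and 0 were at least 2-fold higher, against 34.8% and 0.58% of all genes tested. In KO-labelled cells 19 were lower and 0 higher, against 39.3% and 0.167%. In both genotypes 14 were lower. Among these are Kif20b and Kif18a, whose mean reached the floor only through the unirradiated arrays. Their direction as deposited was thus fixed by the filter. The shares that were 2-fold lower depended on the setting. In WT the kinesin share was 55.6% as deposited, but 27.8% against 27.3% of all genes with a higher floor of 129.1 units. It was 11.1% against 9.48% with quantile normalization and 11.1% against 7.41% with centring. In KO-labelled cells the share was 70.4% as deposited, and 50% against 32.3% of all genes with the higher floor. There it was 18.5% against 8.17% with quantile normalization and 14.8% against 6.49% with centring. The kinesin median was -1.19 for the WT and -1.13 for the KO-labelled response, and -0.25 and -0.26 relative to like signal. By the limma fit 23 of 27 kinesins fell and 0 rose on the deposited scale, against 69.5% and 0.703% of all genes. At an unadjusted p under 0.05, 24 were lower and 0 higher, against 8200 lower and 90 higher of all 11377 genes. Most genes of any kind fell on this scale, so the count is read beside the other scalings. With quantile normalization 9 fell and 3 rose, against 20.1% and 20.3% of all genes, and with median centring 8 fell and 4 rose, against 15.1% and 37.1%.

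The plot of signal by array shows the 27 kinesins in their 4 classes, ordered within each class by the size of the UVB effect.

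**Figure D1:**
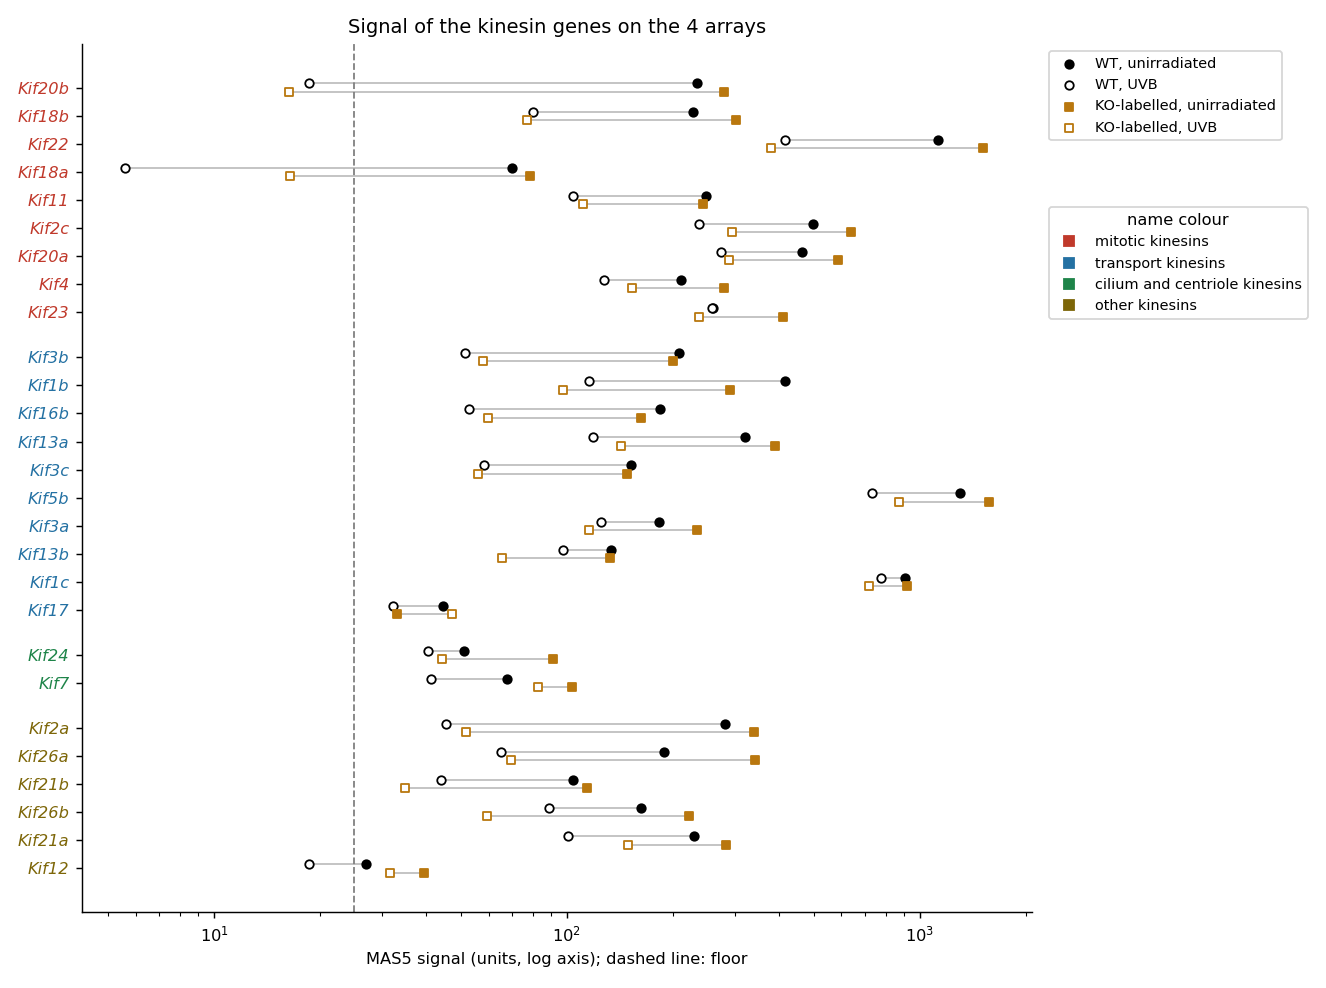
MAS5 signal (log axis, units) of the 27 kinesin genes that reached the floor on average (dashed line, 24.9 units), 1 array per group. Circles are WT and squares KO-labelled cells, filled without irradiation and open 4 h after UVB, as deposited. Open symbols lie left of the filled ones for every gene in WT cells and for every gene but Kif17 in KO-labelled cells, while Kif23 in WT cells read 259.5 and 258.0 units.

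The mitotic kinesins ranged from large falls to responses near the array-wide shift. Kif20b, a kinesin-6 motor of late cytokinesis, read 234.5 units in unirradiated and 18.6 in irradiated WT cells, and 278.9 and 16.3 units in KO-labelled cells. Both irradiated arrays were below the floor and both unirradiated ones far above it. Its fall was thus at least 9.41-fold in WT and at least 11.2-fold in KO-labelled cells. Its UVB effect of -3.36 ± 0.22 (log2, SE, limma adjusted p = 3.57e-06) is likewise a bound. The SE and p-value rest on irradiated values that were set equal at the floor. Relative to like signal the responses were -2.14 and -2.34, the lowest of the 27 kinesins in each genotype.

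Kif22, a chromokinesin that pushes chromosome arms outward, read 1127 and 416.2 units in WT cells without and with UVB, and 1507 and 378.2 units in KO-labelled cells. Its UVB effect was -1.72 ± 0.15 (log2, SE, limma adjusted p = 1.11e-05). Kif18b, which shortens astral microtubules, read 228.4 and 80.3 units in WT and 301.8 and 77.3 units in KO-labelled cells, an effect of -1.74 ± 0.19 (log2, SE, limma adjusted p = 4.42e-05). In both genes the irradiated arrays lay well below the unirradiated ones, and the KO-labelled fold (3.98 and 3.90) was larger than the WT fold (2.71 and 2.84). Without cross-hybridising probe sets the WT response of Kif22 was -0.93, under 2-fold. Kif18a, a kinesin-8 that steadies chromosomes at the spindle equator, read 69.8 and 5.61 units in WT and 78.7 and 16.4 units in KO-labelled cells. With both irradiated values below the floor it was at least 2.80-fold and at least 3.16-fold lower. Kif20b, Kif22, Kif18a and Kif18b fell under all 3 scalings, that is as deposited, with quantile normalization and with median centring. For Kif20b and Kif18a only the unirradiated arrays were above the floor, so as deposited no direction but a fall was possible.

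The remaining mitotic kinesins had smaller responses. Kif11, the kinesin-5 motor that pushes spindle poles apart, read 247.2 and 104.4 units in WT and 242.6 and 111.1 units in KO-labelled cells. Its UVB effect was -1.18 ± 0.17 (log2, SE, limma adjusted p = 0.000215), which stayed below 0 but did not pass under the other 2 scalings. Kif2c, a kinesin-13 that takes microtubules apart at centromeres, read 499.5 and 237.5 units in WT and 638.1 and 293.5 units in KO-labelled cells, 2.10-fold and 2.17-fold lower. Kif20a, which brings the chromosomal passenger complex to the midzone, was 1.70-fold and 2.04-fold lower, and Kif4, a chromokinesin of the midzone, 1.65-fold and 1.82-fold. Kif2c, Kif20a and Kif4 fell as deposited, but the direction turned for Kif2c and Kif20a with median centring and for Kif4 with quantile normalization as well. Relative to like signal the WT and KO-labelled responses were -0.25 and -0.26 for Kif2c, 0.05 and -0.17 for Kif20a, and 0.23 and 0.17 for Kif4. Kif23, the motor subunit of centralspindlin, read 259.5 and 258.0 units in WT and 408.6 and 236.1 units in KO-labelled cells, so only the unirradiated KO-labelled array stood high. Its UVB effect of -0.40 did not pass as deposited (limma adjusted p = 0.0884), and it rose under both other scalings, by 0.54 and 0.70.

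Among the transport kinesins the heterodimer partners of kinesin-2, the motor of intraflagellar transport, did not move alike. Kif3b read 208.1 and 51.4 units in WT cells without and with UVB, and 199.7 and 57.9 units in KO-labelled cells. Its fold was 4.05 and 3.45, its UVB effect -1.90 ± 0.20 (log2, SE, limma adjusted p = 3.21e-05), and it fell under all 3 scalings. Its partner Kif3a read 182.7 and 125.0 units in WT and 234.4 and 115.6 units in KO-labelled cells, 1.46-fold and 2.03-fold lower. Kif3c, the alternative partner of Kif3a, read 151.5 and 58.3 units in WT and 147.9 and 56.2 units in KO-labelled cells, 2.60-fold and 2.63-fold lower. Kif3a and Kif3c fell as deposited, but the direction of Kif3a turned under both other scalings, while Kif3c stayed below 0 without passing.

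The kinesin-3 motors also spread widely. Kif1b, which carries mitochondria and synaptic vesicle precursors, read 414.7 and 115.9 units in WT and 289.4 and 97.6 units in KO-labelled cells, with an effect of -1.70 ± 0.17 (log2, SE, limma adjusted p = 2.27e-05) and a fall under all 3 scalings. Kif16b, a motor of early endosomes, read 183.4 and 52.7 units in WT and 162.4 and 59.8 units in KO-labelled cells, and Kif13a, a motor of recycling endosomes, 319.7 and 118.5 units against 389.9 and 142.7 units. Kif16b was 3.48-fold and 2.71-fold lower and Kif13a 2.70-fold and 2.73-fold, and their UVB effects stayed below 0 under all 3 scalings. Kif16b did not pass with quantile normalization or centring, and Kif13a did not with centring. The KO-labelled response of Kif16b was under 2-fold with the mean over probe sets (-0.99) and without cross-hybridising probe sets (-0.54). Kif13b, which binds the scaffold Dlg1, read 133.2 and 97.8 units in WT and 132.7 and 65.5 units in KO-labelled cells, 1.36-fold and 2.03-fold lower, a fall that turned in direction under both other scalings. Kif1c, a motor of integrin-bearing vesicles, read 906.8 and 777.7 units in WT and 918.1 and 716.4 units in KO-labelled cells. Its effect of -0.29 ± 0.11 just passed as deposited (log2, SE, limma adjusted p = 0.0433), and it rose under quantile normalization and centring, by 0.37 and 0.81.

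Kif5b, the broadly expressed heavy chain of conventional kinesin, read 1303 and 732.0 units in WT and 1571 and 876.2 units in KO-labelled cells. The responses of the 2 genotypes were nearly equal, -0.83 and -0.84, close to the medians of all genes, and the direction turned with median centring. Relative to like signal the Kif5b responses were -0.28 and -0.19. Kif17, a kinesin-2 homodimer, read 44.5 and 32.1 units in WT and 33.0 and 47.1 units in KO-labelled cells, so that on the deposited scale signal after UVB was lower in WT and higher in KO-labelled cells. The WT response turned to 0.40 with quantile normalization and 0.60 with centring, where that of KO-labelled cells was 1.51 and 1.42, and with the mean over probe sets both were below 0 (-0.29 and -0.16). Its effect of 0.02 did not pass as deposited (limma adjusted p = 0.953). All 4 values lie close to the floor, and its other probe set at or above the floor was lower in both genotypes, by 0.11 and 0.83 on the log2 scale.

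Of the kinesins outside these classes Kif2a had the largest response. Kif2a, a kinesin-13 depolymerase of spindle poles and of neurites, read 280.9 and 45.4 units in WT and 339.2 and 51.6 units in KO-labelled cells. It was 6.19-fold and 6.57-fold lower, its effect was -2.67 ± 0.19 (log2, SE, limma adjusted p = 4.69e-06), and relative to like signal its responses were -1.58 and -1.63. Kif26a, an atypical kinesin without motor activity, read 188.7 and 65.2 units in WT and 342.0 and 69.5 units in KO-labelled cells, so the irradiated arrays were alike and the unirradiated KO-labelled array was high. Kif2a and Kif26a fell under all 3 scalings. Kif26b, its paralogue, read 162.5 and 89.0 units in WT and 221.6 and 59.4 units in KO-labelled cells, and its responses differed by -1.03, the only difference among the 27 of at least 1 on the log2 scale. Kif21a and Kif21b, kinesin-4 motors that restrain microtubule growth, had folds of 2.28 and 2.36 in WT and of 1.89 and 3.28 in KO-labelled cells, all lower after UVB, and the direction of Kif21a turned with median centring. Kif12 lay between 18.6 and 39.4 units, near the floor, and did not pass (limma adjusted p = 0.515, direction turned under both other scalings).

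The cilium and centriole kinesins gave low signals. Kif24, which restrains cilium formation at the centriole, read 51.0 and 40.4 units in WT and 91.3 and 44.4 units in KO-labelled cells. Kif7, a regulator of hedgehog signalling at the cilium tip, read 67.8 and 41.1 units in WT and 103.6 and 82.9 units in KO-labelled cells. Kif24 fell as deposited (effect -0.69, limma adjusted p = 0.0418) and Kif7 did not pass (effect -0.52, limma adjusted p = 0.0673), and the direction of both turned under both other scalings.

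Mitotic and transport kinesins were then compared as classes, without a test, since their members are not replicates. Of the 9 mitotic kinesins 6 were at least 2-fold lower in WT and 7 in KO-labelled cells, and of the 10 transport kinesins 5 and 7. For the mitotic class the median response was -1.24 in WT and -1.13 under the KO label, and for the transport class it was -1.11 and -1.21. Relative to like signal the medians were -0.25 and -0.26 for the mitotic class and -0.32 and -0.26 for the transport class. With this split the classes were alike in size by this measure. Kif2a, a depolymerase of spindle poles and of neurites, was counted among the other kinesins, with responses of -1.58 and -1.63. Placing it in the mitotic class would lower both mitotic medians, so the likeness depends on the split. By the limma fit 8 of 9 mitotic and 9 of 10 transport kinesins fell as deposited, where the direction of Kif20b and Kif18a was fixed by the filter. Under quantile normalization 4 mitotic kinesins fell and 1 rose, and 3 transport kinesins fell and 2 rose. The classes differed in their extremes: in WT cells the mitotic class held Kif20b, whose response of -3.23 is a bound set by the floor, and Kif23 at -0.01, while the transport class ran from -2.02 for Kif3b to -0.22 for Kif1c.

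**Figure D2:**
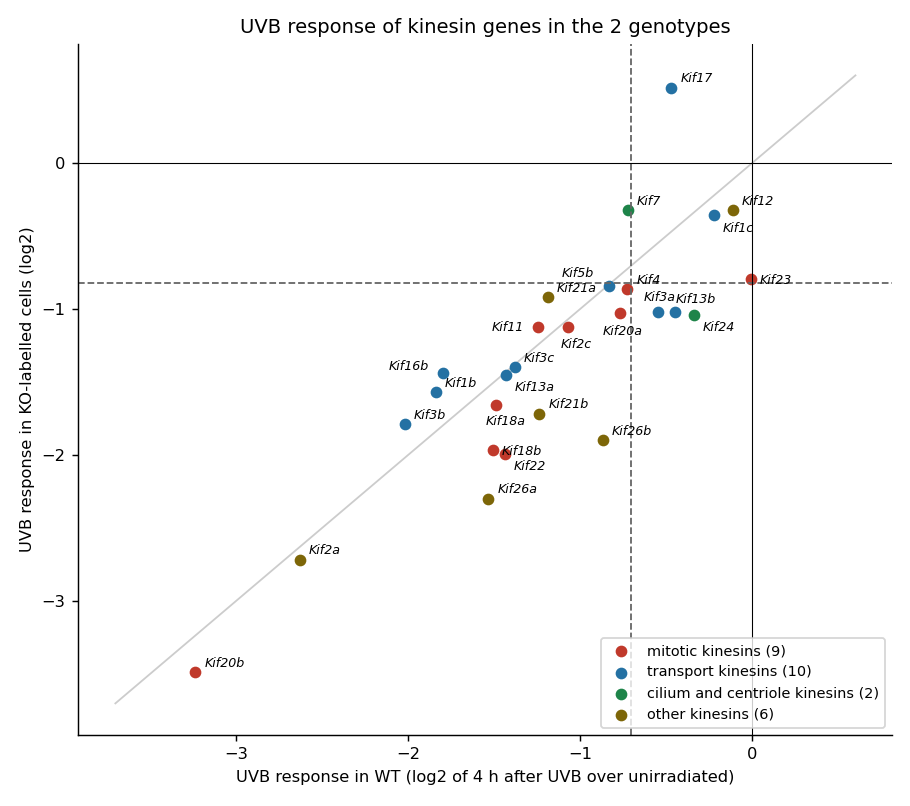
UVB response (log2 of signal 4 h after UVB over signal without irradiation, as deposited) in WT cells on the x axis and for the KO label on the y axis, 1 point per kinesin gene, coloured by class. Dashed lines are the medians of all genes (-0.70 and -0.82), the grey diagonal marks equal responses, and Kif20b, Kif18a and Kif12 (in WT) rest on irradiated values raised to the floor. Kif20b and Kif2a lie lowest, Kif17 is the gene above 0 on the y axis, and 14 of the 26 genes below 0 in both lie above 0 in WT or KO-labelled cells under quantile normalization or centring.

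The plot of both responses shows how closely the genotypes followed each other. Mitotic and transport points are interleaved along the diagonal. Of the genes at least 2-fold lower in 1 genotype only, 1 was lower in WT (Kif21a). The other 5 were lower in KO-labelled cells (Kif13b, Kif20a, Kif24, Kif26b and Kif3a). Of these 5 only Kif26b, at 1.83-fold in WT and 3.73-fold in KO-labelled cells, was more than 2.06-fold lower. This list depends on the probe set. With the mean over probe sets the KO-labelled responses of Kif3a (-0.60) and Kif24 (-0.98) were under 2-fold and that of Kif21a (-1.07) was over it. The KO-labelled response of Kif16b and the WT response of Kif2c (both -0.99) were then also under 2-fold. The responses of Kif20b and Kif18a are bounds in both genotypes and allow no difference. Of the 7 other mitotic kinesins 6 had a lower response in KO-labelled than in WT cells, with a median difference of -0.26, and of the 10 transport kinesins 6 did, with a median of -0.01. Over all genes the median difference was -0.08, and 40.2% of genes had a difference above 0.

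The genotypes were also compared without irradiation. At 2-fold 0 of 27 kinesins were higher and 0 lower in KO-labelled cells, against 1.63% and 0.73% of all genes tested. At such shares few of 27 genes would be called, so these counts say little about the kinesins. At 1.5-fold 4 of 27 were higher, against 8.75% of all genes. The largest ratios were those of Kif26a (1.81-fold higher), Kif24 (1.79-fold), Kif23 (1.57-fold) and Kif7 (1.53-fold), while Kif1b was 1.43-fold lower by its brightest probe set. With the mean over its 7 probe sets the log2 ratio of Kif1b turned to 0.06. As deposited 8 of 9 mitotic kinesins read higher in KO-labelled cells, and their median log2 ratio was 0.35. Kif11 was the exception by its brightest probe set (-0.03), while its other 2 probe sets read higher (0.29 and 0.28). Of the transport kinesins 4 of 10 read higher, with a median of -0.02, whereas 73.1% of all genes read higher, with a median of 0.16. With quantile normalization the medians were 0.19 for the mitotic and -0.19 for the transport class, with the median of all genes at 0. The mitotic and transport classes thus lay on opposite sides of the array-wide ratio by about equal amounts, a difference that was smaller than the 2-fold mark and was not tested. A raised ratio was not particular to the mitotic class. As deposited the median was 0.38 for the 6 other kinesins and 0.73 for the 2 of the cilium and centriole, all of them above 0.

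Markers of other cell types moved with the KO label on the same arrays. Fibroblast markers, of which 11 of 12 were at or above the floor (Twist1 was below), summed to 4200 units in unirradiated WT and 8148 units in unirradiated KO-labelled cells, and to 3287 and 5519 units after UVB. Melanocyte markers, 8 of 8 at or above the floor, summed to 6179 and 8694 units without irradiation and to 4846 and 5637 units after UVB. Keratinocyte markers summed to 52953 and 51795 units without irradiation. After UVB 2 of 11 keratinocyte markers were at least 2-fold higher under the KO label and 0 lower, against 1.42% and 1.47% of all genes. Leukocyte markers, 3 of 8 at or above the floor, were lower under the KO label, at 507.8 and 365.8 units without irradiation and 555.8 and 365.1 units after UVB. Neuron and Schwann cell markers, of which 1 of 6 (Sox10, also a melanocyte marker) reached the floor, summed to 136.4 and 266.4 units without irradiation, and after UVB the sum was the lower one under the KO label. The part of other cell types in the kinesin ratios between genotypes was not tested.

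After UVB 1 of 27 kinesins, Kif7, was at least 2-fold higher in KO-labelled cells (82.9 against 41.1 units, 2.02-fold), and 0 were lower, against 1.42% and 1.47% of all genes. Kif7 was under 2-fold with quantile normalization and with centring. The mitotic class had a median log2 ratio of 0, with 4 genes above and 3 below 0 and Kif20b and Kif18a at the floor in both genotypes. The transport class had a median of 0.06. The ratios without and after irradiation and the responses share arrays, so they are given side by side and are not independent.

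For the genotype effect over both conditions, 0 of 27 kinesins passed in either direction by the limma fit, against 1.03% higher and 0.659% lower of all genes. Those shares were 0% in both directions by limma without the intensity trend or with the tested factor only. At an unadjusted p under 0.05, 4 kinesins were higher and 1 lower in KO-labelled cells, against 1560 higher and 429 lower of all 11377 genes. The lowest adjusted value was that of Kif7, with an effect of 0.81 (log2, limma adjusted p = 0.124). As deposited 9 of 9 mitotic kinesins had a positive coefficient, with a median of 0.17, and 6 of 10 transport kinesins, with a median of 0.03, against 68.9% of all genes with a positive coefficient and a median of 0.11. The medians were 0.04 and -0.10 with median centring, so the sign of the transport median turned.

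Because the array-wide fall sets so much of the response, the UVB effect of each kinesin was followed through the 3 scalings. Of the 27 kinesins 14 stayed below 0 under all 3 (51.9%, against 32.8% of 11206 genes present in all 3 fits): 5 of 9 mitotic, 5 of 10 transport, 0 of 2 cilium and centriole and 4 of 6 other kinesins. A fall that passed under all 3 was seen for 8 kinesins, against 15.1% of all genes. They are Kif20b, Kif22, Kif18a, Kif18b, Kif3b, Kif1b, Kif2a and Kif26a. Kif20b and Kif18a reached the floor only through their unirradiated arrays, so their falls as deposited were fixed by the filter. A rise under both quantile normalization and centring was seen for Kif17, Kif1c and Kif23, against 20.7% of all genes.

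**Figure D3:**
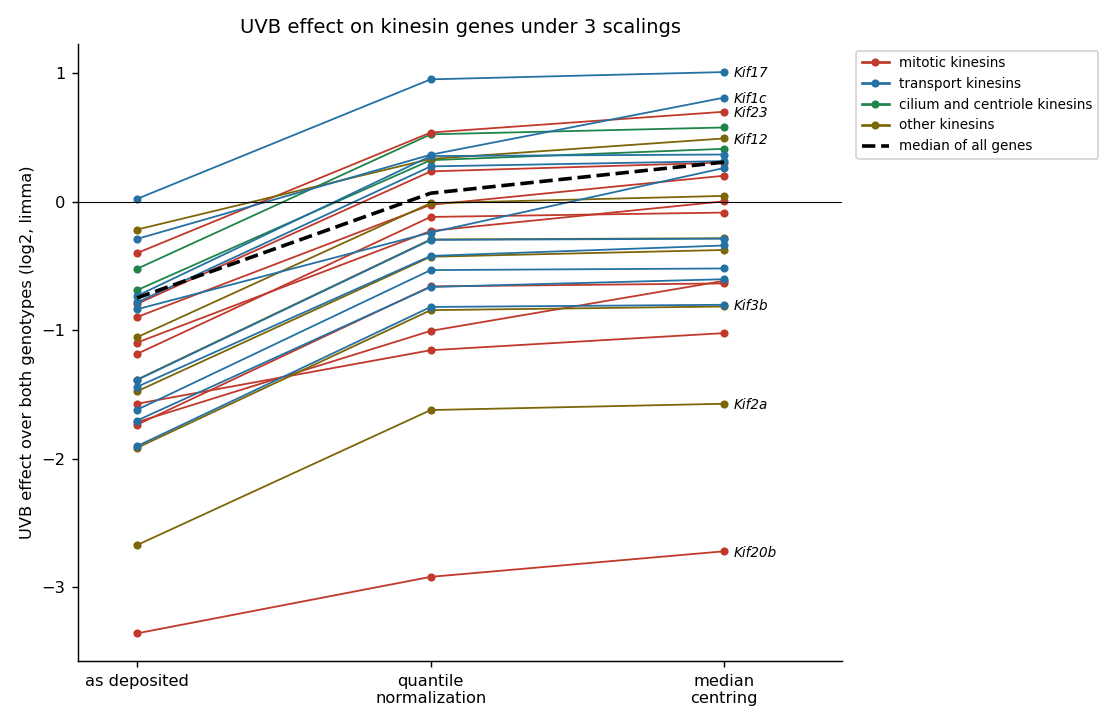
UVB effect over both genotypes (log2, limma) of the 27 kinesin genes as deposited, after quantile normalization and after median centring, 1 line per gene, coloured by class. The dashed black line is the median of all genes, which moves from -0.75 to 0.07 and 0.31. Kif20b and Kif2a stay lowest under each scaling, and Kif17, Kif1c and Kif23 end highest, where 12 genes that were below 0 as deposited lie above 0.

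The plot of the 3 scalings shows the kinesins and the median of all genes moving upward together. Kif20b kept an effect of -2.92 and -2.72 under quantile normalization and centring, and Kif2a one of -1.62 and -1.57. Both stood below the median of all genes, -0.75, 0.07 and 0.31 in the same order, under each scaling.

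The probe sets of a kinesin gene mostly gave the same direction. Of 63 kinesin probe sets at or above the floor 62 were below 0 in WT and 61 in KO-labelled cells, and 34 and 38 were at least 2-fold lower. For the 15 genes with several such probe sets, all had 1 sign in 14 genes in WT and in 13 in KO-labelled cells. The exceptions were a dim probe set of Kif5b, at 26.6 and 36.3 units in WT, with responses of 0.45 and 0.22, and the Kif17 probe sets in KO-labelled cells. Within a gene the median range was 0.72 for WT and 0.73 for KO-labelled cells on the log2 scale. The widest ranges were 1.42 for Kif1b in WT and 1.79 for Kif2a in KO-labelled cells. All 4 Kif2a probe sets were lower, between -2.72 and -0.93 in KO-labelled cells, so the size of its response depends on the probe set and its direction does not on the deposited scale.

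**Figure D4:**
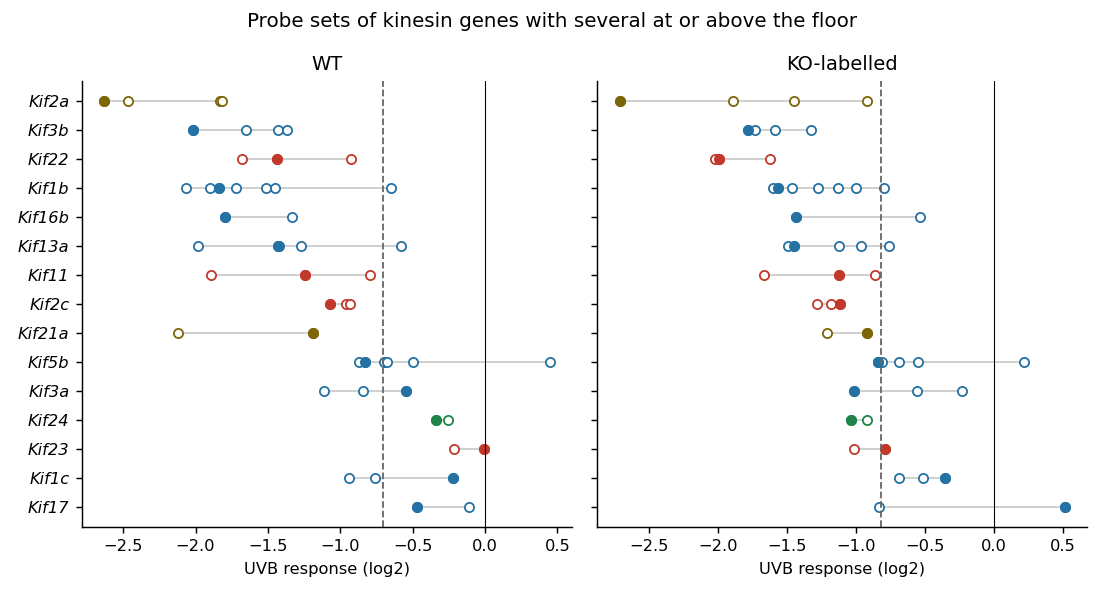
UVB response (log2, as deposited) of each probe set at or above the floor for the 15 kinesin genes with several, in WT (left) and KO-labelled cells (right). Filled points are the brightest probe set, which represents the gene, open points the others, and the dashed line is the median of all genes. All points lie below 0 except a Kif5b probe set in both panels and the brightest Kif17 probe set in KO-labelled cells, and zero moves with the scaling.

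Kinesin genes are long, and response and gene span were set side by side as a description. The span, from first to last annotated base, had a median of 42.0 kb for the 27 kinesins and 22.9 kb for the 11346 genes with a span, and ran from 8.65 kb for Kif20a to 403.7 kb for Kif26b. Over all genes the median WT response was -0.40 under 10 kb, -0.67 from 10 to 30 kb, -0.95 from 30 to 100 kb and -0.91 over 100 kb. The kinesins lay lower in WT cells in each bin with more than 1 of them: -0.90 for 6 genes from 10 to 30 kb, -1.24 for 13 genes from 30 to 100 kb and -1.19 for 7 genes over 100 kb. Spearman's rho between span and WT response was -0.33 over all genes, -0.58 over the 10 transport kinesins and -0.03 over the 9 mitotic ones. Genes of 1 array share its depth and scaling and are not independent replicates. Kif20b, with a span of 53.4 kb, and Kif22, with 14.7 kb, thus had large responses at quite different spans.

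The genes that work with kinesins were taken from lists by role, with the limma fit on the deposited scale and the other scalings beside it. Of all genes 69.5% fell and 0.703% rose as deposited, 20.1% and 20.3% with quantile normalization, and 15.1% and 37.1% with centring, and each count below is to be read against these shares. Of 28 mitotic partners 27 fell and 0 rose, with a median effect of -1.16, close to that of the mitotic kinesins (-1.18). The exception was Kntc1, a kinetochore protein (effect -0.27, limma adjusted p = 0.201), named after its values were seen. The largest falls were those of Ttk, the spindle checkpoint kinase (302.5 and 42.1 units in WT, 300.2 and 68.4 units in KO-labelled cells), of Incenp, the scaffold of the chromosomal passenger complex (934.2 and 205.5 units, 1376 and 285.6 units), and of the spindle pole kinase Aurka (874.2 and 203.1 units, 1002 and 259.1 units). In these 3 genes both irradiated arrays lay below both unirradiated ones. With quantile normalization 14 partners fell and 1 rose, and with centring 8 fell and 8 rose.

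The regulators of transcription in late cell cycle phases included the factors that bind the promoter elements shown above. Of 15 genes 14 fell and 1 rose, with a median of -1.58, and 8 fell and 1 rose under each other scaling. Lin54, the subunit of MuvB that binds the CHR, read 199.9 and 9.64 units in WT and 227.1 and 22.1 units in KO-labelled cells, so it was at least 8.02-fold and at least 9.12-fold lower. It too reached the floor only through its unirradiated arrays, which fixed its direction as deposited. Nfya, a subunit of NF-Y, read 319.4 and 72.7 units in WT and 312.1 and 44.4 units in KO-labelled cells. E2f3, an E2F transcription factor, read 182.1 and 26.4 units in WT and 228.7 and 15.5 units in KO-labelled cells, where the irradiated value was below the floor. The gene that rose was Cdkn1a, which encodes the cell cycle inhibitor p21, named after its values were seen, at 3418 and 6276 units in WT and 3614 and 3937 units in KO-labelled cells (effect 0.50, limma adjusted p = 0.0145).

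Light chains and cargo adaptors of the transport kinesins moved less than the mitotic partners. Of 14 genes 10 fell and 0 rose, near the 69.5% of all genes that fell, with a median of -0.76 beside -0.75 for all genes and -1.11 for the transport kinesins. The median turned to 0.06 with quantile normalization (2 fell, 2 rose) and 0.15 with centring (2 fell, 6 rose). The largest falls were those of Trak2, which links kinesin-1 to mitochondria (216.4 and 45.7 units in WT, 168.6 and 42.1 units in KO-labelled cells), its mitochondrial anchor Rhot1 (546.0 and 200.2 units, 614.1 and 213.4 units), and Kifbp, a protein that binds and inhibits several kinesin motors (531.2 and 213.8 units, 543.2 and 250.2 units). All 3 were at least 2.17-fold lower in each genotype.

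Dynein and dynactin genes, which encode the motor of the opposite direction, had a median effect of -0.49, with 13 of 21 falling and 0 rising, below the 69.5% of all genes that fell. The median turned to 0.09 with quantile normalization (3 fell, 8 rose) and 0.61 with centring (2 fell, 16 rose, against 15.1% and 37.1% of all genes). Its regulators Nde1, Ndel1 and Pafah1b1 stood out, with effects of -2.14, -1.69 and -1.43. Nde1 read 386.0 and 85.5 units in WT and 400.1 and 93.2 units in KO-labelled cells. Of 11 tubulin genes 6 fell, likewise below that share, and 1 rose, with a median of -0.33, which turned to 0.16 and 0.77 under the other scalings (2 fell and 2 rose, 0 fell and 8 rose). Tubb2a was the tubulin that rose, at 1136 and 2894 units in WT and 1335 and 1508 units in KO-labelled cells (effect 0.76, limma adjusted p = 0.0107). Tuba8 and Tubb3 fell as deposited, by 1.39 and 0.79 on the log2 scale.

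Kinesins whose names do not follow the Kif pattern were counted separately. Of 5 such genes at or above the floor 3 fell: Kifc3, a minus-end motor at cell junctions (269.5 and 36.5 units in WT, 196.8 and 51.9 units in KO-labelled cells), Cenpe, the kinesin-7 of kinetochores (209.2 and 78.7 units, 243.8 and 72.9 units), and Kifc1, which focuses spindle poles (184.4 and 68.7 units, 206.0 and 98.2 units). Kifc2 and Kifc5b did not pass (limma adjusted p = 0.283 and 0.108). Under each other scaling 1 of the 5 fell and 1 rose.

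**Figure D5:**
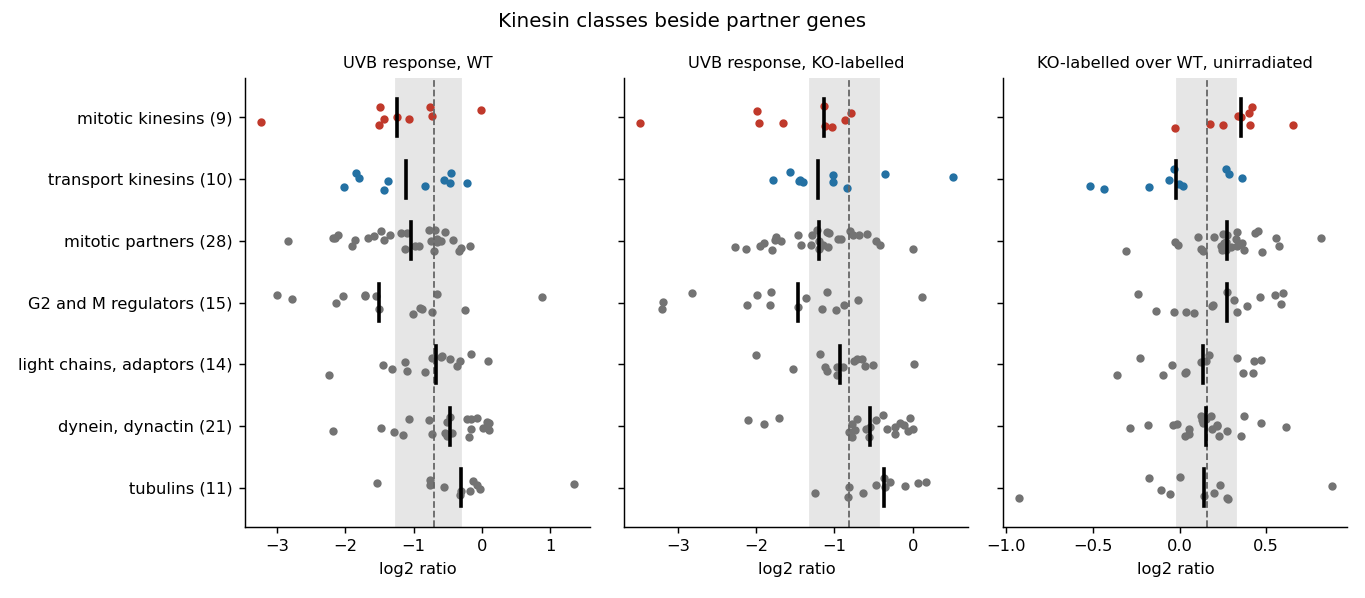
Log2 ratios, as deposited, of mitotic and transport kinesins and of partner lists (number of genes in brackets), for the UVB response in WT, the UVB response in KO-labelled cells and KO-labelled over WT without irradiation. Points are genes, black bars list medians, dashed lines the median and grey bands the range from the 25th to the 75th percentile of all genes tested. Both kinesin classes, the mitotic partners and the late cell cycle regulators lie left of the median of all genes in the first and second panels, tubulins and dynein genes right of it, on the deposited scale. The adaptor, dynein and tubulin medians reach or pass 0 under both other scalings, and with centring so do the WT median of the mitotic partners (0.03) and the KO-labelled median of the mitotic kinesins (0.0045).

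In the plot of partner lists the median of the transport kinesins, -1.11 in WT and -1.21 in KO-labelled cells, lies near that of the mitotic partners (-1.04 and -1.20) and below that of the adaptors (-0.67 and -0.92). In the panel of unirradiated cells the mitotic kinesins and their partners lie to the right of the transport kinesins, with medians of 0.35, 0.27 and -0.02. Among the partners 1 of 28, Birc5, the survivin subunit of the chromosomal passenger complex, had a genotype effect that passed (0.54 higher in KO-labelled cells, limma adjusted p = 0.0486), named after its values were seen. With quantile normalization and with centring 0 of 28 passed. By limma without the intensity trend, or with the tested factor only, 0% of all genes passed for genotype.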

How the data were processed

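Signal intensity per probe set was deposited by the authors on a linear scale, made with MAS5 per the submitters' processing notes. Its version and scaling target are not stated there. Labelling with biotin followed Trizol extraction of total RNA, per the labels' protocols. Groups came from the genotype and stress labels, with 1 array each. The kinesins, their classes and the partner and marker lists were chosen with earlier results of these data known.

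Signal was raised to a floor of 24.9 units and log2 ratios were called at 2-fold. limma 3.58.1 in R 4.3.3 was fitted to 11377 genes with an intensity trend, irradiation and genotype as terms, and Benjamini-Hochberg adjustment, after a check on simulated data. The check recovered 71 of 100 simulated falls of 1 on the log2 scale and 100 of 100 falls of 2, with 3 false calls. It held no array-wide shift, so it does not cover the dependence on scaling. Every kinesin could be named, and in each partner list the 3 genes with the largest irradiation coefficient. Promoter windows and gene spans came from RefSeq tables. Alternatives were quantile normalization, median centring, other floors and thresholds, the mean over probe sets, leaving out cross-hybridising probe sets, limma without the trend and limma with the tested factor only. Tables and figures used Python 3.11.15, pandas 2.3.3 and matplotlib 3.10.9.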

Additional observations from a re-analysis of the deposited data

Results flagged for a closer look

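On the deposited scale Kif17 had UVB responses of opposite sign in the 2 genotypes. Its brightest probe set went from 44.5 to 32.1 units in WT cells and went from 33.0 to 47.1 units in KO-labelled cells, so the KO-labelled response exceeded the WT response by 0.99 on the log2 scale. With 1 array a group the difference was not tested. Both responses were above 0 with quantile normalization (0.40 in WT, 1.51 in KO-labelled cells) and with centring (0.60 and 1.42), and both below 0 with the mean over probe sets (-0.29 and -0.16).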

How the results depend on the processing

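Scaling changed the kinesin counts of the UVB response, and the cause was not tested. With quantile normalization, of 27 kinesins 3 were 2-fold lower and 0 higher in WT and 5 lower and 1 higher in KO-labelled cells. Of all genes 9.48% were lower and 5.41% higher in WT, and 8.17% and 4.17% in KO-labelled cells. With median centring 3 were lower and 1 higher in WT, and 4 lower and 1 higher in KO-labelled cells. The shares of all genes were then 7.41% and 11.2% in WT, and 6.49% and 8.82% in KO-labelled cells. By limma 9 fell and 3 rose with quantile normalization, and 8 fell and 4 rose with centring, against 23 and 0 as deposited. Of all genes 20.1% fell and 20.3% rose with quantile normalization, and 15.1% and 37.1% with centring. With quantile normalization the median WT and KO-labelled responses were -0.23 and -0.22 for the mitotic class and -0.30 and -0.24 for the transport class. With centring they were -0.17 and 0.0045 for the mitotic class and -0.036 and -0.078 for the transport class. With a higher floor, the 75th percentile at 129.1 units, 18 kinesins were left. Of these 5 were lower in WT and 9 in KO-labelled cells, against 27.3% and 32.3% of all genes. The WT medians were then -0.84 (mitotic) and -0.76 (transport), and the KO-labelled transport median was -0.85. With a lower floor, the 25th percentile at 9.38 units, the WT transport median was -0.83 over 13 genes. At 3-fold 5 kinesins were lower in WT and 9 in KO-labelled cells, against 14.9% and 16.2% of all genes. Without cross-hybridising probe sets the WT mitotic median was -0.96. Kinesins higher in unirradiated KO-labelled cells numbered 2 of 32 with the lower floor and 4 of 27 at 1.5-fold, against 6.22% and 8.75% of all genes. After UVB the count of kinesins higher in KO-labelled cells was 0 with quantile normalization, centring, the higher floor or 3-fold, and with the lower floor 1 was lower. Of all genes 2.21%, 1.78%, 0.324% and 0.123% were higher in the same order, and with the lower floor 4.30% were lower. Called responses in KO-labelled cells that turned in direction with quantile normalization and with centring were those of Kif13b (0.112 and 0.111), Kif24 (0.052 and 0.091) and Kif3a (0.083 and 0.11). With centring alone those of Kif11 (0.0045), Kif20a (0.10) and Kif2c (0.010) turned. The limma effect turned with quantile normalization and with centring for Kif12 (0.33 and 0.49), Kif13b (0.36 and 0.37), Kif1c (0.37 and 0.81), Kif23 (0.54 and 0.70), Kif24 (0.32 and 0.41), Kif3a (0.27 and 0.32), Kif4 (0.24 and 0.30) and Kif7 (0.52 and 0.58). With centring alone it turned for Kif20a (0.20), Kif21a (0.045), Kif2c (0.00331) and Kif5b (0.26). The effect of Kif17 turned to -0.23 with the mean over probe sets. No paired analysis was possible because the labels give no replicate numbers and each group has 1 array. Leaving out any array leaves no residual degree of freedom, so it was not run. Low signal limits Kif12, Kif17, Kif18a and Kif20b, which have values near or below the floor.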
